A study of Mus musculus with 4 samples.

Results

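The potassium channel genes described here were the 90 genes whose symbol starts with Kcn and that were listed for both cells and nuclei, of 27336 gene symbols listed for both. The 9 genes left out were Kcnq1, Kcne1, Kcnj2, Kcnj8, Kcnj10, Kcnj13, Kcnj15, Kcnj16 and Kcnq1ot1, which cover the secretion channel of the stria and its inward rectifiers. Members were chosen by name, and the 29 with at least 50 unique molecular identifiers (UMIs, each a counted RNA molecule) over the 4 libraries were described by cell type. Kcnab2 lay just inside this minimum with 50 UMIs.

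The stria vascularis (SV), the epithelium of the cochlear lateral wall, was taken from CBA/J mice at postnatal day 30, and the labels name no treatment and no genetic change. There were 3 captures of whole cells (scRNA-Seq) and 1 capture of nuclei (snRNA-Seq), each a single suspension pooled from several mice. The capture was therefore the replicate, and nuclei have no test. The p-values measure how differences between types vary over the 3 suspensions, with the spread moderated over all genes. This variation may be technical. The libraries held 2811309, 8113494 and 8340882 UMIs for cells and 22332501 for nuclei, and after filters 377, 1314 and 1461 cells and 9723 nuclei remained.

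Cell types were rebuilt by clustering and named from marker genes, none of them a potassium channel gene, and no Kcn gene took part in clustering. The 3 cell captures gave 116 marginal, 950 intermediate, 117 basal and 40 spindle/root cells, the last as 5, 18 and 17 per capture. Nuclei gave 2676 marginal, 1465 intermediate, 686 basal and 192 spindle/root. Among the 4 types of nuclei, the summed markers of a type were highest in the nuclei of that name, at 15759.7 CPM (UMIs per 1000000 UMIs) for marginal, 37487 for intermediate, 1457 for basal and 3666 for spindle/root, beside at most 4385, 5842, 455 and 171 in the other 3 types. The clusters were named from these same markers, so these sums describe the types and do not test the names. Nuclei named neutrophil, outside the 4 types, held the spindle/root markers at 4051 CPM. Between 56.0% and 57.9% of the kept cells of a capture and 40.9% of the kept nuclei stayed unnamed. Mitochondrial genes held a median of 38.6% to 45.4% of a cell's UMIs and 8.23% of a nucleus's.

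Potassium channels open a path for potassium ions through the cell membrane, and they are grouped by what opens them and by the build of the pore. In the SV, potassium is taken up by marginal cells and released into endolymph, and the potassium conductance of intermediate cells generates the endocochlear potential. Two-pore-domain channels carry background currents, calcium-activated channels open when calcium rises in the cell, voltage-gated channels open on depolarisation, and auxiliary subunits alter how pores open and where they are placed.

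Of the 90 members, 29 had at least 50 UMIs and 61 had fewer, 13 of which had none in any library. Described members were 9 of 29 voltage-gated subunits, 8 of 16 auxiliary subunits and regulators, 6 of 8 calcium- or sodium-activated and Slo channels, 5 of 14 two-pore-domain channels and 1 of 10 modifier subunits. None of the 9 remaining inward rectifiers and none of the 4 opposite-strand genes reached the minimum. The members with no UMI were Kcna3, Kcna5, Kcnd3os, Kcnf1, Kcnh6, Kcnj1, Kcnj5, Kcnk15, Kcnk16, Kcnk9, Kcns2, Kcnv1 and Kcnv2. Below the minimum, Kcnmb2 had 36 UMIs, Kcne3 35, and Kcnj6 and Kcnj9 34 each.

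In whole cells, Kcnk1, Kcnab1 and Kcnn2 were higher in marginal cells than in the other 3 types (their mean on the log scale), Kcnn4 was higher in intermediate cells, and Kcnk1 and Kcnn2 were also higher in spindle/root cells. No member was higher in basal cells, where 15.1% of all genes tested were. UMIs were summed per capture and type and compared by the quasi-likelihood test of edgeR, adjusted by Benjamini-Hochberg over 6100 genes, and a gene was called at an adjusted p under 0.05. Only 4 members passed the filter on low counts, so their share of calls says nothing about the other 86. The filter asks for a minimum level in as many sums as a type has captures. Kcnab1 passed on marginal sums alone (at most 9.67 CPM elsewhere), and Kcnk1 and Kcnn2 on marginal and spindle/root sums. For these members the filter and the higher calls therefore rest on the same values. The same calls on the 4 members were made in a fit without that filter. Over all genes tested, 16.2% were called higher in marginal, 20.2% in intermediate and 16.9% in spindle/root cells. The members called lower were Kcnk1 in intermediate cells, where 21.2% of genes were, Kcnk1 and Kcnn2 in basal cells, where 13.6% were, and Kcnn4 in spindle/root cells, where 8.89% were.

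In nuclei, Kcnma1, Kcnn2, Kcnab1 and Kcnn1 were at least 2 times as high in marginal nuclei as in each other type with at least 20 UMIs, Kcnn4 and Kcnk13 in intermediate nuclei, and Kcnq5, Kcnb2 and Kcnip4 in spindle/root nuclei. That is 4, 2 and 3 of the 28 members with at least 20 UMIs over the 4 types, and 0 in basal nuclei. Among 13225 genes the same size rule took 5.01% for marginal, 3.64% for intermediate, 2.01% for basal and 2.9% for spindle/root nuclei. With 1 nucleus library there is no test, and the intervals below are exact Poisson intervals at 95% that cover counting error only.

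**Figure D1:**
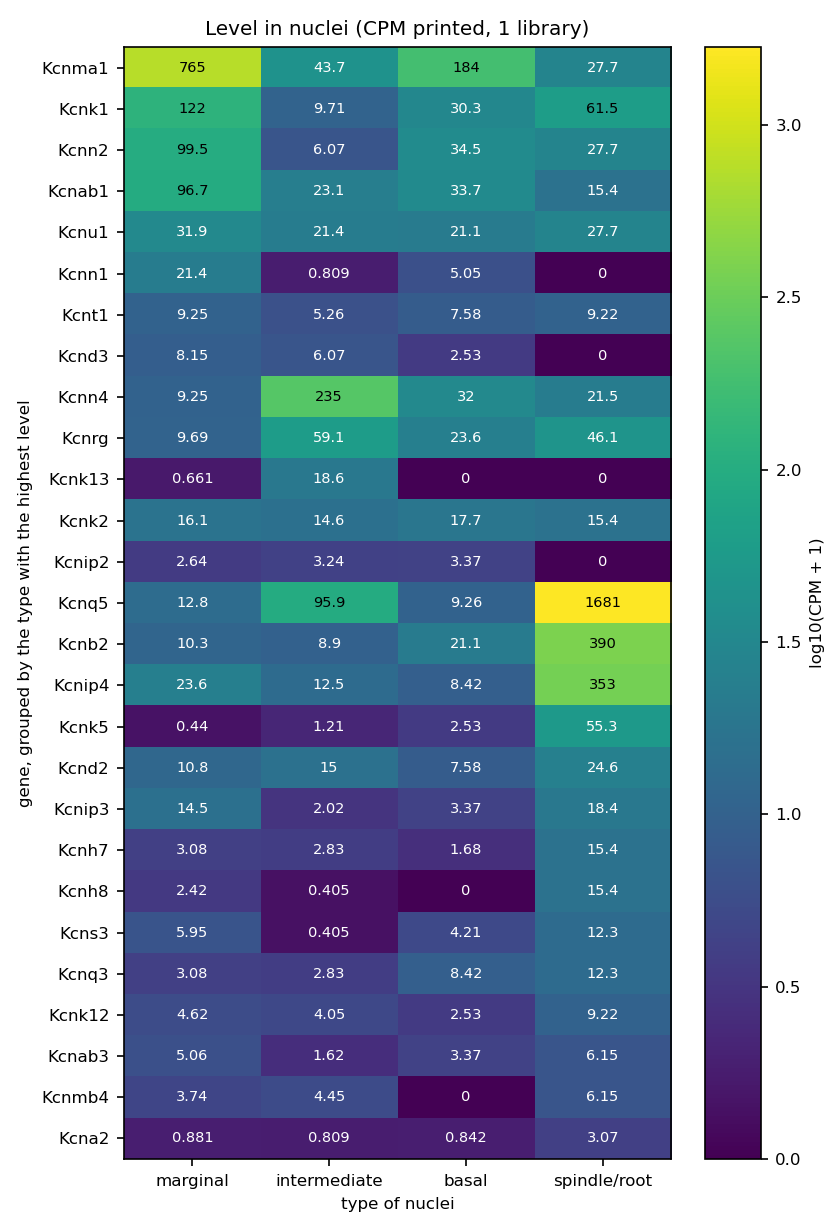
Level of described members in nuclei of the 4 types, as CPM printed in each cell of the grid and coloured by log10(CPM + 1), with genes in rows grouped by the type with the highest level. Kcnab2, with 0 UMIs in these types, is not drawn. Kcnq5 at 1681 CPM in spindle/root nuclei and Kcnma1 at 765 CPM in marginal nuclei stand out.

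Kcnk1, a two-pore-domain channel also known as TWIK-1, lies on chromosome 8 at chr8:125995170-126030685 of mm10 on the plus strand. Levels are given as CPM of a type in a capture. In marginal cells Kcnk1 was at 203, 158 and 160 CPM in the 3 captures, a mean of 173 ± 25.2 (SD, n = 3). Spindle/root cells were at 98.2, 71.4 and 135 CPM. Intermediate cells were at 1.85, 1.79 and 1.62 CPM, and basal cells at 0, 0 and 2.70 CPM. Every marginal and spindle/root value lay above every intermediate and basal value, and marginal and spindle/root values did not overlap either.

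For Kcnk1 the contrast with the other 3 types gave a log2 fold change of 4.73 ± 0.25 (SE, edgeR adjusted p = 5.1468e-30) in marginal and 3.65 ± 0.41 (edgeR adjusted p = 2.8471e-12) in spindle/root cells. It was -3.47 ± 1.01 (edgeR adjusted p = 0.0033177) in intermediate and -4.91 ± 0.72 (edgeR adjusted p = 2.1951e-08) in basal cells. The basal value rests on 1 UMI, and the ratio of marginal to basal cells was 190 with a counting interval of 33.7 to 7538. The intermediate call was lost without the third cell capture (log2 fold change -2.50, edgeR adjusted p = 0.99) and at a coarser clustering (edgeR adjusted p = 0.077). In nuclei Kcnk1 was at 122 CPM (112 to 132) in marginal, 61.5 (37.5 to 94.9) in spindle/root, 30.3 (21.2 to 42.0) in basal and 9.71 (6.22 to 14.4) in intermediate nuclei. Marginal over spindle/root nuclei gave a ratio of 1.98 (1.27 to 3.27), which missed the 2-fold size rule.

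Kcnk13, the two-pore-domain channel THIK-1, was detected in a single one of the 4 types of whole cells. Intermediate cells were at 3.71, 4.30 and 4.06 CPM, which rests on 26 UMIs in all. Marginal, basal and spindle/root cells had 0 UMIs, which allows up to 2.32, 2.63 and 7.70 CPM (3 UMIs over the summed captures). Against a floor of 3 UMIs the intermediate level was at least 1.77-fold higher than the marginal one, at least 1.56-fold higher than the basal one and below the limit for spindle/root cells. Without the filter on low counts, Kcnk13 was called in intermediate cells with a fitted log2 fold change of 4.80 ± 1.28 (edgeR adjusted p = 0.0015003), a value that depends on the prior count where 3 types are at 0. Intermediate nuclei were at 18.6 CPM (13.6 to 24.8) and marginal nuclei at 0.661 (0.136 to 1.93). The ratio of intermediate to marginal nuclei was 28.2 (9.06 to 142), and the fold was at least 7.37 over basal nuclei, which had 0 UMIs. No type other than intermediate exceeded 3 UMIs among the 4 types of nuclei.

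Kcnk5, the two-pore-domain channel TASK-2, was named after its values were seen, since its 18 UMIs in spindle/root nuclei fall under the minimum of 20. Spindle/root cells were at 85.9, 22.0 and 23.8 CPM on 14 UMIs, basal cells held 1 UMI, and marginal and intermediate cells held 0. All 3 spindle/root values lay above every other value. Against a floor of 3 UMIs, Kcnk5 was at least 15.5-fold higher in spindle/root than in marginal cells and at least 75.9-fold higher than in intermediate cells. The ratio of spindle/root to basal cells was 41.0 with a counting interval of 6.24 to 1735. Without the filter on low counts the fitted log2 fold change was 6.42 ± 1.06 (edgeR adjusted p = 4.6845e-08). That value depends on the prior count, since 2 types were at 0, and pooled levels with the floor of 3 UMIs gave 5.19. In spindle/root nuclei Kcnk5 was at 55.3 CPM (32.8 to 87.4), and the other 3 types lay between 0.440 and 2.53 CPM with at most 3 UMIs each.

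Without the filter on low counts 15490 genes were tested, and 36 members were among them. Members called higher then included Kcnma1 beside the 3 named for marginal cells, Kcnk13 beside Kcnn4 for intermediate cells, and Kcnk5 and Kcnq3 beside Kcnk1 and Kcnn2 for spindle/root cells. Over all genes in that fit, 7.64% were called higher in marginal, 11.5% in intermediate and 6.54% in spindle/root cells.

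The remaining two-pore-domain members were Kcnk2, known as TREK-1, with 581 UMIs over the 4 libraries, and Kcnk12. All 47 Kcnk2 UMIs of the kept cells lay in a single unnamed cluster of 38 cells led by Ccl11 and Dcn, where 19 cells held at least 1, and none lay in the 4 types. In nuclei Kcnk2 lay between 14.6 CPM in intermediate and 17.7 CPM in basal nuclei, and the 4 types did not differ beyond their intervals. Kcnk12 had 9 of its 10 UMIs of kept cells in an unnamed cluster led by S100a9.

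The promoters of Kcnk1, Kcnab1, Kcnma1, Kcnn4, Kcnk13 and Kcnk5, with all 3 for Kcnab1, are shown so that their sequence can be set beside the levels. Each is 300 bases from RefSeq on GRCm38.p6, with 250 bases before and 50 after an annotated start. Capitals mark CACGTG, the E-box, and a sequence without capitals holds none of the motifs searched.
Kcnk1 promoter, chr8:125994852-125995151, plus strand: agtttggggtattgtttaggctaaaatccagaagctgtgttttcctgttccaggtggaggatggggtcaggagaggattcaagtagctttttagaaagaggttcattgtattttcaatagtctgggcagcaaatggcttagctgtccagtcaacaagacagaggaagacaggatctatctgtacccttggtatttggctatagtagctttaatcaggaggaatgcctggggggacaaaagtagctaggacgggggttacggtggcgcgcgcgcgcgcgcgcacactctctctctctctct
Kcnab1 promoter, chr3:64948962-64949261, plus strand: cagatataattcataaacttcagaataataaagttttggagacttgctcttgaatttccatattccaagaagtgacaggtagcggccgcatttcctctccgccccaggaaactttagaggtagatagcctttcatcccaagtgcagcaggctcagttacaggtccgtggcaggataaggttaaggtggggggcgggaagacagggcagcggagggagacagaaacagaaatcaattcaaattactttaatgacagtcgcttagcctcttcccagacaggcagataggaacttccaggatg
Kcnab1 promoter, chr3:65108764-65109063, plus strand: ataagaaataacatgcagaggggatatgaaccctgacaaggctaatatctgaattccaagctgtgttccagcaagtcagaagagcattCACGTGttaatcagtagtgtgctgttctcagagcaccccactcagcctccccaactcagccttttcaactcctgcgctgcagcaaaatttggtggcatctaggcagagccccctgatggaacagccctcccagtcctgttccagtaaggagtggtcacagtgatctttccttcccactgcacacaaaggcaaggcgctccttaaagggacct
Kcnab1 promoter, chr3:65187853-65188152, plus strand: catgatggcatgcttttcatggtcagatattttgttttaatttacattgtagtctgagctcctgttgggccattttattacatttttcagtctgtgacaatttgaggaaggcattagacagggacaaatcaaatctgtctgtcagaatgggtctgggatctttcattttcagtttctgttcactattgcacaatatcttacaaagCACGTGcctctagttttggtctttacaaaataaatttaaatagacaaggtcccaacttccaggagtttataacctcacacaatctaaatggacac
Kcnma1 promoter, chr14:24004156-24004455, minus strand: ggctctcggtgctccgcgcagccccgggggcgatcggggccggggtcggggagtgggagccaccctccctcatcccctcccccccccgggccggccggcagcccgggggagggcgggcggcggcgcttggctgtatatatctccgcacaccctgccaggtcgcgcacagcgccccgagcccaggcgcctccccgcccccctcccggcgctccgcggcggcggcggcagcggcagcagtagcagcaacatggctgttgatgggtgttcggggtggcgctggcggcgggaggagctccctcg
Kcnn4 promoter, chr7:24370013-24370312, plus strand: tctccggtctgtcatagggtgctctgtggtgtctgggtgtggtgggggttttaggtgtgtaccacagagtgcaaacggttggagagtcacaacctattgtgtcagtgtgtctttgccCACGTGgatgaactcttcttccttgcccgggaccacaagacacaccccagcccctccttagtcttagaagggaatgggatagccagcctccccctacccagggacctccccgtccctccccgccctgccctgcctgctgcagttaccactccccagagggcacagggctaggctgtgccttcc
Kcnk13 promoter, chr12:99964249-99964548, plus strand: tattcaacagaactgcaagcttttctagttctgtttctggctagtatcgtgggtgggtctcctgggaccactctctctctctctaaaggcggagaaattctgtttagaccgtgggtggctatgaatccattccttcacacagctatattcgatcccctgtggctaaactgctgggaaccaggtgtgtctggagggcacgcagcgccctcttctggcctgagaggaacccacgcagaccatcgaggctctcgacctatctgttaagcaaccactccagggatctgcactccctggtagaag
Kcnk5 promoter, chr14:20181733-20182032, minus strand: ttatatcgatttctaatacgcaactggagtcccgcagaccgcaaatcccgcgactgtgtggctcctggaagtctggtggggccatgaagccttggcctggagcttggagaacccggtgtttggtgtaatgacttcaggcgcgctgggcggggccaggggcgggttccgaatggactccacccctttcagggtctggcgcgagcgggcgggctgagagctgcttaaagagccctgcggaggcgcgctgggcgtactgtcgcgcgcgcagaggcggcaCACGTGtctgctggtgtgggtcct

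Motifs were searched as exact letters on both strands. The table held promoters for 22 of the 29 described members, 35 in all. The element of the estrogen-related receptors, AAGGTCA, was in 0 of the 35 and in 4.72% of 32851 promoters of all genes. The M-box, TCATGTG, was in 0 of the 35 and in 3.77% of all promoters. Its core, CATGTG, lies within those letters and was in 1 of the 35, at Kcnab2, and in 14.2% of all promoters. The E-box shown in capitals was in 4 of the 35 and in 7.15% of all promoters. These 4 were 2 promoters of Kcnab1 and those of Kcnn4 and Kcnk5. A match is a description of these letters in the window and not a site of binding.

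Kcnma1 encodes the pore of the BK channel, which opens with calcium and with voltage, and lies at chr14:23289431-24014491 on the minus strand. Marginal cells were at 36.0, 21.1 and 27.0 CPM, a mean of 28.0 ± 7.50 (SD, n = 3). Intermediate cells were at 1.85, 1.43 and 3.25 CPM, and basal and spindle/root cells held 1 UMI each. The marginal values lay above every value of the other 3 types. Kcnma1 did not pass the filter on low counts, and in the fit without that filter its log2 fold change in marginal cells was 3.70 ± 0.59 (edgeR adjusted p = 1.2311e-08).

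Marginal nuclei held 3475 Kcnma1 UMIs, or 765 CPM (740 to 791). Basal nuclei followed with 184 CPM (160 to 210), then intermediate with 43.7 (35.8 to 52.8) and spindle/root with 27.7 (12.6 to 52.5). The ratio of marginal to basal nuclei was 4.17 (3.63 to 4.80), and intermediate and spindle/root nuclei did not differ beyond their intervals. Basal nuclei were not of one level. The clusters of 88 and 69 basal nuclei were at 701 and 604 CPM for Kcnma1, and those of 485 and 44 at 23.8 and 11.2 CPM. In the first pair the summed marginal markers were at 9739.6 and 10139 CPM, beside 2585 and 2096 in the other pair and 13191 in the largest marginal cluster. The cluster of 44 held the summed intermediate markers at 25670 CPM, beside 5162 in the cluster of 485. The part of marginal or intermediate RNA in the levels of basal nuclei was not tested. This applies to Kcnma1 and also to Kcnk1, Kcnn2, Kcnab1 and Kcnn4.

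Kcnn2 and Kcnn1 encode SK channels, small-conductance channels opened by calcium through calmodulin. Kcnn2, on chromosome 18, was at 40.5, 42.2 and 24.6 CPM in marginal cells and at 12.3, 22.0 and 55.5 CPM in spindle/root cells. Intermediate cells were at 0.927, 1.79 and 1.22 CPM, and basal cells held 0 UMIs. Marginal and spindle/root captures overlapped, and both lay above every intermediate value. The fitted log2 fold change was 4.00 ± 0.57 (edgeR adjusted p = 9.2487e-09) in marginal and 3.68 ± 0.83 (edgeR adjusted p = 2.7152e-04) in spindle/root cells, where 2 of 3 captures lay above the mean CPM of the others.

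Against a floor of 3 UMIs in basal cells, Kcnn2 was at least 13.8-fold higher in marginal and at least 11.7-fold higher in spindle/root cells than in basal cells. With that floor the log2 fold change of pooled levels against the other 3 types was 2.90 in marginal and 2.58 in spindle/root cells. The larger fitted values depend on the prior count, since basal cells were at 0. The ratio of marginal to intermediate cells was 25.6 (12.4 to 59.4). The lower call in basal cells (edgeR adjusted p = 5.2945e-04) rests on those 0 UMIs, and the spindle/root call was lost without the third capture (edgeR adjusted p = 0.087). In nuclei Kcnn2 was at 99.5 CPM (90.6 to 109) in marginal, 34.5 (24.8 to 46.8) in basal, 27.7 (12.6 to 52.5) in spindle/root and 6.07 (3.40 to 10.0) in intermediate nuclei. Basal and spindle/root nuclei did not differ beyond their intervals. Some clusters of basal nuclei held marginal marker RNA, as described for Kcnma1, and its part in the basal Kcnn2 level was not tested. Kcnn1 was at 21.4 CPM (17.3 to 26.1) in marginal nuclei, 5.05 in basal, 0.809 in intermediate and 0 UMIs in spindle/root nuclei. In cells Kcnn1 had only 6 UMIs in marginal, 10 in intermediate, 2 in basal and 1 in spindle/root cells, too few to rank the types.

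Kcnn4 encodes the intermediate-conductance calcium-activated channel KCa3.1 and lies at chr7:24370263-24386690 on the plus strand. Intermediate cells were at 169, 146 and 170 CPM, a mean of 162 ± 13.7 (SD, n = 3). Marginal cells were at 72.0, 52.8 and 36.8 CPM, basal cells at 82.2, 47.8 and 45.9, and spindle/root cells at 36.8, 22.0 and 0. The intermediate values lay above all others, and marginal and basal values overlapped.

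The log2 fold change of Kcnn4 was 2.41 ± 0.17 (edgeR adjusted p = 2.9951e-22) in intermediate and -2.23 ± 0.44 (edgeR adjusted p = 2.9287e-05) in spindle/root cells. Marginal cells gave -0.18 ± 0.29 (edgeR adjusted p = 0.69) and basal cells 0.01 ± 0.20 (edgeR adjusted p = 0.99). In nuclei the gap was wider, with 235 CPM (216 to 255) in intermediate, 32.0 (22.6 to 43.9) in basal, 21.5 (8.65 to 44.3) in spindle/root and 9.25 (6.67 to 12.5) in marginal nuclei. Intermediate over marginal nuclei gave a ratio of 25.4 (18.5 to 35.6), against 3.12 (2.43 to 4.06) in cells.

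**Figure D2:**
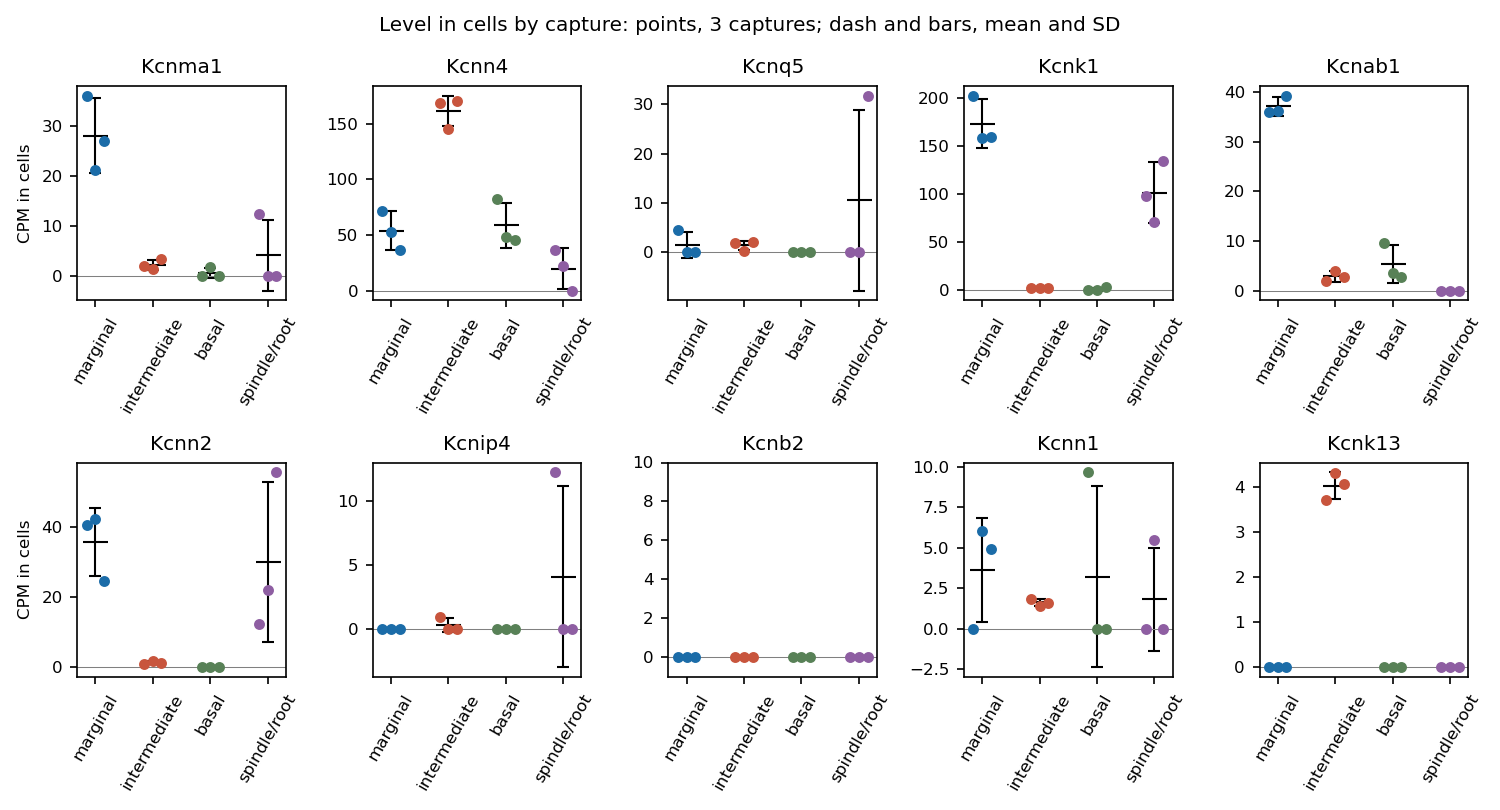
Level of the 10 members named by rule in whole cells, in CPM on linear axes of their own scale, against the 4 types. Points are the 3 captures, and the dash and bars are the mean and SD. Kcnk1 was highest in marginal cells (158 to 203 CPM) and Kcnn4 in intermediate cells (146 to 170 CPM), while Kcnb2 is at 0 throughout.

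Intermediate cell RNA was measured in the other types of whole cells, since it moved with Kcnn4. The summed level of the 12 intermediate markers in marginal cells was 28.5% of that in intermediate cells, and Kcnn4 was at 32.1%. In basal cells the values were 35.5% and 33.6%, and in spindle/root cells 11.5% and 11.3%. Marginal nuclei held 4.87% of the intermediate marker level and 3.94% of the Kcnn4 level. A further setting took cells low in intermediate marker RNA. In each capture and type other than intermediate, these had a marker share at or below the median, and all intermediate cells were kept. Among them, marginal cells held 7.61% of the marker level and 2.47% of the Kcnn4 level, the latter on 2 UMIs. In that setting spindle/root cells held 0 Kcnn4 UMIs, so the fitted value depends on the prior count. Kcnn4 then had a log2 fold change of 6.33 in intermediate cells and was no longer called in spindle/root cells (edgeR adjusted p = 0.076). The other types were picked for little intermediate RNA, which by itself widens the contrast of a gene that moves with it. The value of 6.33 is therefore not a test. The part of this RNA in the Kcnn4 levels of all cells was not tested. Kcnk1 in the same low marginal cells was at 242 CPM, against 166 in all marginal cells. Spindle/root cells held the summed marginal markers at 4712 to 5364 CPM over the captures, beside 15635 to 17067 in marginal cells. The part of marginal RNA in the Kcnk1 and Kcnn2 levels of spindle/root cells was not tested.

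Other activated channels were Kcnt1, a sodium-activated channel, and Kcnu1, known as Slo3. Kcnu1 had 392 UMIs in nuclei and 0 in cells, with 31.9 CPM in marginal and 27.7 CPM in spindle/root nuclei, which did not differ beyond their intervals. Kcnt1 had 83 UMIs in nuclei and 5 in cells.

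**Figure D3:**
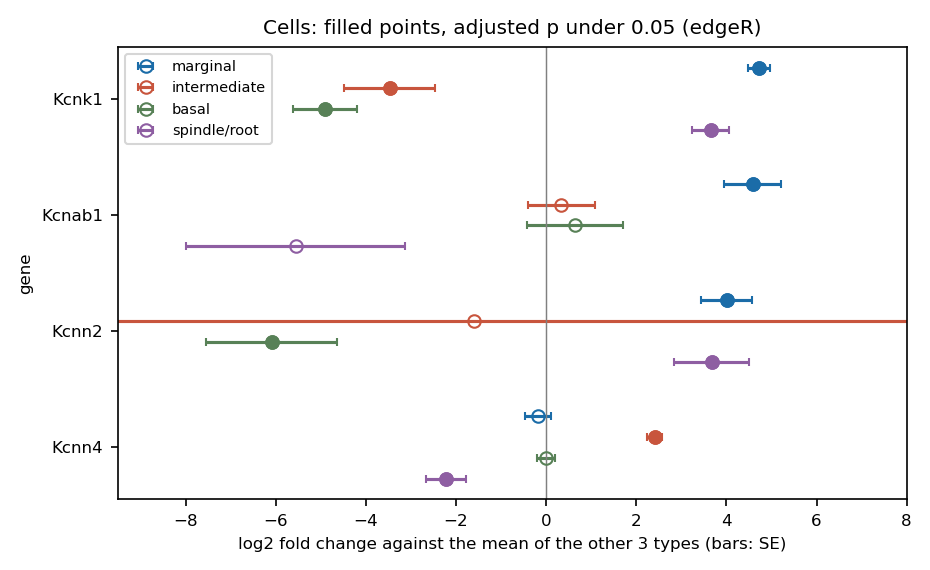
Log2 fold change in whole cells of the 4 members that passed the filter on low counts, each type against the mean of the other 3, with bars for the SE. Filled points have an edgeR adjusted p under 0.05. The bar of Kcnn2 in intermediate cells runs past both ends of the axis (SE 17.0). Kcnn2 holds 0 UMIs in basal cells and Kcnab1 0 in spindle/root cells, so their fitted values depend on the prior count. The SE was derived from the F statistic and is a poor measure of spread there. Kcnk1 lies at 4.73 in marginal and -4.91 in basal cells.

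Kcnq5, a voltage-gated subunit that carries M-type current, lies at chr1:21398403-21961942 on the minus strand. Spindle/root nuclei were at 1681 CPM (1543 to 1828), intermediate at 95.9 (84.1 to 109), marginal at 12.8 (9.70 to 16.5) and basal at 9.26 (4.62 to 16.6). The ratio of spindle/root to intermediate nuclei was 17.5 (15.0 to 20.5), and marginal and basal nuclei did not differ beyond their intervals. Of the 547 Kcnq5 UMIs in spindle/root nuclei, 543 lay in 1 of the 3 clusters of that type, which had 95 nuclei and was led by Hpse2 and Masp1. In whole cells spindle/root had 4 Kcnq5 UMIs, all in the third capture, and without the filter on low counts they were not called (edgeR adjusted p = 0.13).

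Kcnb2, the delayed rectifier subunit Kv2.2, was at 390 CPM (325 to 464) in spindle/root nuclei, 21.1 in basal, 10.3 in marginal and 8.90 in intermediate nuclei. The ratio of spindle/root to basal nuclei was 18.5 (12.0 to 29.7). Of its 127 UMIs there, 125 lay in another spindle/root cluster of 58 nuclei led by Ceacam16 and Epyc, and within it in 13 nuclei. At a resolution of 0.4 in place of 0.8 the spindle/root level was 13.1 CPM in place of 390, and Kcnb2 no longer met the 2-fold size rule. In cells Kcnb2 held 9 UMIs in the unnamed Ccl11 and Dcn cluster and 0 in the 4 types.

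**Figure D4:**
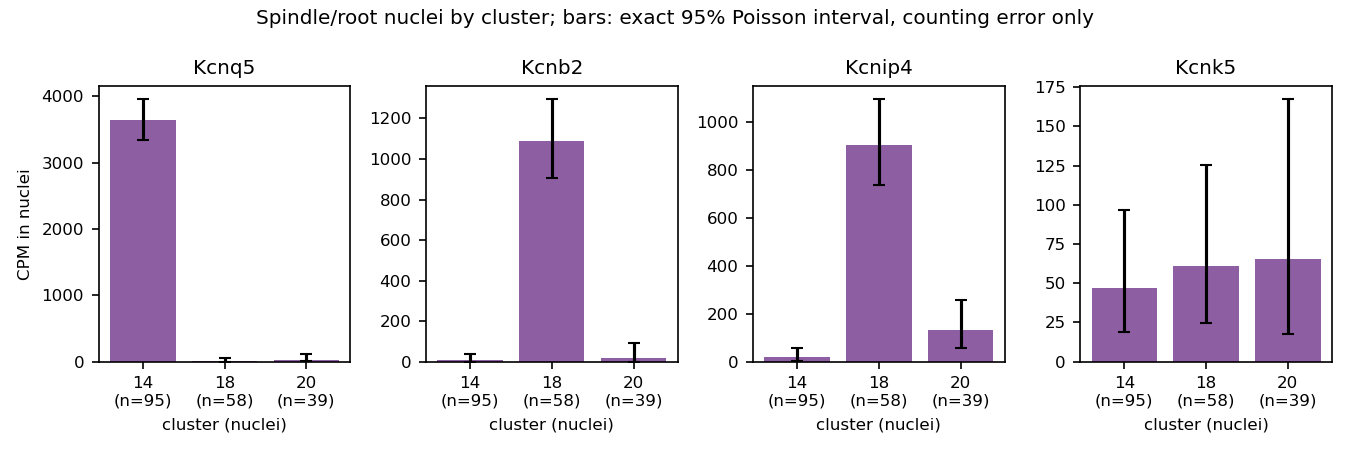
Level in CPM of Kcnq5, Kcnb2, Kcnip4 and Kcnk5 in the 3 clusters of spindle/root nuclei, numbered 14, 18 and 20, with 95, 58 and 39 nuclei. Bars are exact Poisson intervals at 95% and cover counting error only. Kcnq5 stood at 3637 CPM in cluster 14, Kcnb2 at 1087 and Kcnip4 at 904 in cluster 18, and the Kcnk5 intervals overlap in all 3.

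Other voltage-gated members were lower in UMIs. Kcnq3 was called in spindle/root cells without the filter on low counts (edgeR adjusted p = 0.027045), and that call rests on 4 UMIs there and 0 in the other 3 types. Kcnd2, Kcnd3 and Kcnh8 had 0 UMIs in the 4 cell types and were at 10.8, 8.15 and 2.42 CPM in marginal and 24.6, 0 and 15.4 CPM in spindle/root nuclei, the latter on at most 8 UMIs. Kcnd2, which encodes Kv4.2, had 137 UMIs in an unnamed cluster of 33 nuclei led by Meg3. Kcnh7 had 31 of its UMIs in an unnamed nucleus cluster led by Hemgn and Rhag, which carries red cell genes. Kcna2 had 30 UMIs in cells and 22 in nuclei. Kcns3, the described modifier subunit, was at 5.95 CPM in marginal nuclei (27 UMIs) and 12.3 CPM in spindle/root nuclei (4 UMIs), which did not differ beyond their intervals.

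Kcnab1 encodes a cytoplasmic beta subunit of voltage-gated channels and lies at chr3:65109384-65378223 on the plus strand. Marginal cells were at 36.0, 36.2 and 39.3 CPM, a mean of 37.2 ± 1.85 (SD, n = 3). Basal cells were at 9.67, 3.54 and 2.70 CPM, intermediate cells at 1.85, 3.94 and 2.84, and spindle/root cells held 0 UMIs. The marginal values stood above all others, and basal and intermediate values overlapped.

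The fitted log2 fold change of Kcnab1 in marginal cells was 4.58 ± 0.63 (edgeR adjusted p = 3.3297e-09). It depends on the prior count, since spindle/root cells were at 0, and pooled levels with a floor of 3 UMIs there gave 2.97. Against that floor the marginal level was at least 4.82-fold higher than in spindle/root cells. Marginal nuclei were at 96.7 CPM (87.8 to 106), basal at 33.7 (24.1 to 45.9), intermediate at 23.1 (17.5 to 29.9) and spindle/root at 15.4 (4.99 to 35.9). The 3 lower types did not differ beyond their intervals. The ratio of marginal nuclei to these types ranged from 2.87 for basal to 6.29 for spindle/root nuclei.

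Kcnip4, a calcium-binding partner of Kv4 channels, was at 353 CPM (292 to 424) in spindle/root nuclei. Marginal nuclei were at 23.6 CPM, intermediate at 12.5 and basal at 8.42, and the ratio of spindle/root to marginal nuclei was 15.0 (11.4 to 19.7). Of 115 UMIs in spindle/root nuclei, 104 lay in the Ceacam16 and Epyc cluster, over 28 nuclei. In cells Kcnip4 held 2 UMIs in all. An unnamed cluster of 33 nuclei held another 101 Kcnip4 UMIs, the cluster in which Kcnd2 was also high.

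Among other auxiliary members, marginal nuclei were at 14.5 CPM for Kcnip3, 2.64 for Kcnip2, 5.06 for Kcnab3 and 3.74 for Kcnmb4. Spindle/root nuclei were at 18.4, 0, 6.15 and 6.15 CPM on at most 6 UMIs a gene, and Kcnab2 had 0 UMIs in all 4 types of nuclei. Kcnrg, which encodes a regulator of channel assembly, had 383 UMIs in nuclei and 2 in cells. It was at 59.1 CPM in intermediate and 46.1 CPM in spindle/root nuclei, which did not differ beyond their intervals. Kcnrg lies within Dleu2 on the opposite strand, and whether the counting used strand is not given in the sources used here. Most other described members also overlap an annotated gene of the opposite strand, among them Kcnma1, Kcnq5, Kcnk1, Kcnab1, Kcnn2, Kcnip4, Kcnb2, Kcnn1, Kcnk13, Kcnk2 and Kcnq3, as well as Kcnab3, Kcnab2, Kcnd3, Kcnmb4 and Kcnh7. Their counts are uncertain for the same reason. Kcnn4 and Kcnk5 have no such overlap.

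Unnamed clusters also held these members, with 26.6% of the Kcnk1, 51.0% of the Kcnma1, 60.1% of the Kcnab1 and 21.5% of the Kcnn4 UMIs of kept cells. Levels varied between the clusters of a type. Among marginal nuclei, the largest cluster of 1994 was at 893 CPM for Kcnma1 and 83.5 for Kcnk1, the next of 622 at 591 and 172, and the smallest of 60 at 32.3 and 366. In the same order, the mitochondrial share of these clusters was 2.17%, 14.4% and 28.1%. Malat1 RNA was at 169848, 78274 and 4266 CPM. The part of this difference in the levels of Kcnma1 and Kcnk1 was not tested. These are clusters of 1 library and no test was made. In marginal cells the 3 clusters were at 122, 184 and 334 CPM for Kcnk1. In the same order, their mitochondrial shares were 29.1%, 28.9% and 10.6%, a fall where the shares of the nucleus clusters rose. Their summed intermediate markers were at 10344, 2990 and 498 CPM. The part of these differences in the Kcnk1 levels of cells was not tested. Intermediate nuclei held Kcnn4 at 263 CPM in the cluster of 1201 and 169 in that of 264. Their mitochondrial shares were 2.31% and 19.7%, and Malat1 was at 310938 and 116475 CPM. The part of this difference in the Kcnn4 levels was not tested.

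The genes known to work with these channels were taken from a list of 17 partners not named Kcn, of which 8 were tested. In spindle/root cells 6 were higher and 0 lower, beside 16.9% and 8.89% of all genes, with a median log2 fold change of 0.74 beside 0.01 over all genes. Among them were Dpp10, an auxiliary subunit of Kv4 channels, the calmodulin genes Calm2 and Calm3, Vapa and Nedd4l. Dpp10 passed the filter on low counts on spindle/root sums alone, with a mean of 45.0 CPM there and at most 11.6 elsewhere. For Dpp10 the filter and the higher call therefore rest on the same values. In marginal cells 1 was higher and 2 lower, beside 16.2% and 13.8% of all genes. In intermediate cells 0 were higher and 4 lower, beside 20.2% and 21.2%, and in basal cells 1 and 2, beside 15.1% and 13.6%. Of 12 genes of potassium cycling in the SV, 11 were tested. Marginal cells had 7 higher and 3 lower with a median of 1.73, intermediate cells 4 and 7 with -2.43, basal cells 1 and 7 with -1.62, and spindle/root cells 6 and 5 with 0.98, to be read beside the same shares of all genes. Kcnj16, among those higher in spindle/root cells, also passed the filter on spindle/root sums alone, with a mean of 255 CPM there and at most 1.18 elsewhere.

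The nuclei gave 53.7% of all UMIs, and 26 of the 29 described members lay above that share. The 9 members longer than 300 kb had 84.8% to 100% of their UMIs from nuclei, 7 of them over 90%. The 8 members shorter than 50 kb had 42.3% to 99.5%, with a median of 75.8% beside 98.0% for the long members. Over the 29 genes Spearman's rho between gene length and this share was 0.56, given as a description, since the genes share the same 4 libraries. Among the short members, Kcnrg with 5.4 kb had 99.5% and Kcnip2 with 24.2 kb had 98.1%. Whether the authors counted introns in nuclei is not given in the sources used here.

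**Figure D5:**
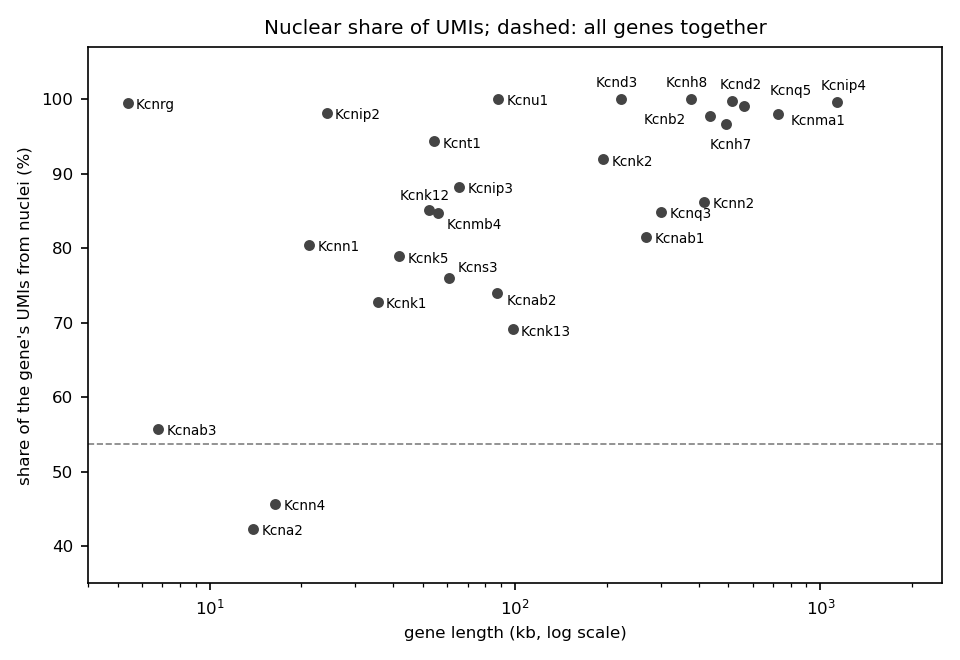
Share of the UMIs of described members that came from nuclei, in percent, against gene length in kb on a log axis. Each point is a gene, and the dashed line is the share of all UMIs, 53.7%. Kcnn4 and Kcna2 are among the genes under the line.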

How the data were processed

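The authors prepared droplet libraries of polyA RNA from 3 suspensions of cells and 1 of nuclei, and used Cell Ranger 2.0.0 with mm10, as the submitters' processing notes name them, to obtain UMI tables. The deposited values are raw counts, not normalized, with a table for each capture. Counting of introns, use of strand and the annotation of the longer nucleus gene list are not given in the sources used here.

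A barcode needed at least 200 genes to be kept, and doublets were removed at 0.8% for every 1000 barcodes (1, 15 and 20 cells, 978 nuclei). Cells shared 0 to 6 barcodes between captures, and 7, 26 and 32 with nuclei. Clusters were formed from 2000 variable genes in Seurat 5.3.0 (R 4.3.3), with principal components with a JackStraw p under 0.0001 (38 for cells, 36 for nuclei) and a resolution of 0.8, and clusters were named from 103 markers of 17 classes. UMIs summed per capture and type (at least 5 cells) were fitted in edgeR 4.0.16 with TMM, filterByExpr and the capture as a block. The SE of a log2 fold change was its absolute value divided by the square root of the F statistic of the test. It is derived, not fitted, and is a poor measure of spread where a type holds 0 UMIs. The sums of a capture come from 1 suspension, which pairs them, and over 4400 genes the correlation of 18 pairs lay between 0.00909 and 0.245. Sums of 5818 genes were simulated with changes in marginal sums only, the same spread for every gene and no capture effect. There edgeR recovered 57 of 96 genes with a 2-fold change and 100 of 100 with a 4-fold change, with 1 false call. The real sums differ more between types, so these counts do not measure recovery or error in them.

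Members named with full values were those called higher in a cell type, or at least 2 times as high in nuclei of 1 type as in each other type with at least 20 UMIs. Kcnk5 was added after its values were seen. The members, lists and tests were chosen with earlier results of these data known. Exact intervals were computed in scipy 1.17.1 and cover counting error only. Alternatives were DESeq2 1.42.0, no filter on low counts, no TMM scaling, no replicate block, resolutions of 0.4 and 1.2, no removal of doublets, each capture left out, cells low in intermediate marker RNA and a 3-fold rule in nuclei. Sums without mitochondrial genes were added after seeing the data. Gene positions come from GENCODE vM21 on mm10. Pore signatures in proteins were not searched, since no protein table was used here. Some genes counted here are not reported by name or value.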

Additional observations from a re-analysis of the deposited data

Results flagged for a closer look

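These results lay in types outside the comparisons, each above the level that 3 UMIs would give. Kcnn4 was at 39.9 CPM in erythroid cells (44 UMIs, exact interval 29.0 to 53.6). In nuclei of the B cell class, Kcnq5 was at 1034 CPM (405 UMIs, 936 to 1140), Kcnk2 at 84.3 CPM (33 UMIs, 58.0 to 118) and Kcnrg at 68.9 CPM (27 UMIs, 45.4 to 100.3). The 35 B cells of the whole-cell captures held 0 Kcnq5 UMIs, where 3 UMIs correspond to 19.4 CPM. Over the 4 libraries, 99.1% of the Kcnq5 UMIs came from nuclei.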

How the results depend on the processing

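Among the values counted next, none turned its direction. The single genes counted were Kcnk1, Kcnab1, Kcnn2 and Kcnn4 in whole cells. Levels of single genes in nuclei were not counted. The fall of Kcnb2 in spindle/root nuclei at a resolution of 0.4 is therefore not covered. Of the values that answer a comparison, 185 stayed close and 23 moved over the alternatives. Of the other values, most of them for single genes, 203 stayed close and 5 moved, none of the latter for a single gene. For single genes, 1 value passed the threshold that it had missed and 5 no longer passed it. Without the filter on low counts 3 members were higher in intermediate and 4 in spindle/root cells. In cells low in intermediate marker RNA, where Kcnab1 and Kcnn2 could not be tested, 1 member was higher in marginal, 1 in spindle/root and 0 lower in intermediate, 1 lower in basal and 0 lower in spindle/root cells, and 533 genes were lower in marginal, 719 lower in intermediate and 575 higher in spindle/root cells. DESeq2 called 2 members lower in intermediate cells, Kcnk1 and Kcnn2, and 495 genes lower in basal cells, against 831. At a resolution of 0.4 no member (0) was lower in intermediate cells. Without TMM scaling the median log2 fold change of all genes moved to -0.33 in intermediate, 0.11 in marginal and 0.19 in spindle/root cells, and 685 genes were higher and 2356 lower in intermediate cells, against 1230 and 1294, with 360 lower in spindle/root cells. With each capture left out in turn, members lower in intermediate cells ranged from 0 to 1 and members higher in spindle/root cells from 1 to 2, the lower values without the third capture. Genes lower in marginal cells then ranged from 478 to 752, higher in basal cells from 608 to 970, lower in basal cells from 403 to 654 (the lowest of each without the second capture) and lower in spindle/root cells from 356 to 437. With a 3-fold rule in nuclei 2 members were left for marginal nuclei, Kcnma1 and Kcnn1. At a resolution of 0.4 the 2-fold rule took 5 members for marginal nuclei, with Kcnk1 added, and 2 for spindle/root nuclei, with Kcnb2 lost. Without removal of doublets it took 4 members for spindle/root nuclei, with Kcnk5 added.

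Without the replicate block, 3 members were higher in marginal, 1 in intermediate, 0 in basal and 2 in spindle/root cells, and no call on a member changed. No paired analysis was possible because cells and nuclei came from separate suspensions, which concerns cells against nuclei only. The cell types were paired by capture. Spindle/root rests on 40 cells, and 3 UMIs there correspond to 7.70 CPM, so lower levels were not detectable at this depth.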

Other observations

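Several members were high in unnamed clusters outside the 4 types. An unnamed cluster of 37 nuclei led by Cdh6, with Ccl11 and Dcn among its leading genes, was at 966 CPM for Kcnb2 (90 UMIs) and at 215 CPM for Kcnq3 (20 UMIs). The unnamed cell cluster led by Ccl11 and Dcn held 9 UMIs of each of these genes, and Kcnk2 at 210.1 CPM. Another cluster of 33 nuclei, led by Meg3 and with Bglap among its leading genes, was at 2522 CPM for Kcnd2 and 1859 CPM for Kcnip4. The Hemgn and Rhag cluster of 206 nuclei was at 114.6 CPM for Kcnn4 (122 UMIs) and held 18 UMIs of Kcnab2. These are clusters of 1 nucleus library or of few cells, and no test was made.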
